A study of Homo sapiens with 8 samples.

Results

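IL24 (ENSG00000162892), the gene of interleukin-24, was followed as 1 of the 36715 genes in the deposited count table. It was chosen by its counts, which stood high after 24 h of EMD37 and not at 12 h, so its own values below are a description and carry no test. The material was 8 RNA-seq libraries of MDA-MB-231, a human triple-negative breast cancer cell line kept in DMEM with 10% fetal bovine serum. Cultures received EMD37 at 0.5 µM or the solvent DMSO as vehicle, and were taken at 12 h or 24 h. Each of the 4 groups (vehicle 12 h, EMD37 12 h, vehicle 24 h, EMD37 24 h) had 2 libraries, marked A and B. The labels do not say whether A and B were separate cultures, so a p-value here reflects differences among these libraries, which may be technical. EMD37 is known here by its code name alone.

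Interleukin-24, also called MDA-7, is a secreted cytokine of the interleukin-10 family. It binds a receptor made of IL20RB together with either IL20RA or IL22RA1, which signals through JAK kinases and the transcription factor STAT3. It is made by stimulated leukocytes, keratinocytes and melanocytes, and it is studied in cancer because cells forced to produce it can undergo endoplasmic reticulum stress and die. Its gene lies in a cluster with those of its relatives IL10, IL19 and IL20.

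On build hg38 with the GENCODE 29 annotation, IL24 covers chr1:206897443-206904139 on the plus strand. It has 7 annotated transcripts and 1979 exonic bases, of which 0 are shared with another gene. The sequences around the start sites of IL24 and of its neighbours IL19 and IL20 are shown because these 3 genes lie in 1 cluster and were all highest in the EMD37 24 h libraries. They come from RefSeq on GRCh38.p14, plus strand, and run from 250 bases before the start site to 50 after it. IL24 spans chr1:206897193-206897492. The IL19 window, chr1:206834099-206834398, is the later of a pair listed for that gene, and the IL20 window, chr1:206863315-206863614, is the earlier of a pair. Capitals mark matches to the motifs described after them.
IL24: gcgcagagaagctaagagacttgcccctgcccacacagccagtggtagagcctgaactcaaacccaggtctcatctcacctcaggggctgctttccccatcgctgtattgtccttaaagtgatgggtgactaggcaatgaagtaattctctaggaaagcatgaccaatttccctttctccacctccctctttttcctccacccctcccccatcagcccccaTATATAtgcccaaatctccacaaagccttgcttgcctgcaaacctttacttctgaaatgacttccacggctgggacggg
IL19: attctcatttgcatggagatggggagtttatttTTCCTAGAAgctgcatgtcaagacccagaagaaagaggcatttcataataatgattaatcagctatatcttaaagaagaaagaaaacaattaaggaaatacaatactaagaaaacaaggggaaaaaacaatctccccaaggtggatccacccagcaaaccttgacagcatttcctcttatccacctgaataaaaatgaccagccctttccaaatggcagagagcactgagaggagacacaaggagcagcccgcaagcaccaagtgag
IL20: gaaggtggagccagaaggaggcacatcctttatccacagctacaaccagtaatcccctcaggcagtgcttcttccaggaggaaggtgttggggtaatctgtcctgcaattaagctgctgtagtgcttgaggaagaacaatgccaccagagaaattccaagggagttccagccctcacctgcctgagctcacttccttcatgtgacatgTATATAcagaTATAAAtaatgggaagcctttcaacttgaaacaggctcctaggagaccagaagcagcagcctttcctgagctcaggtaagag
The search covered both strands for TGANTCA (AP-1), TGATGNAA (C/EBP-ATF), TTGCNNAA (C/EBP), an NF-kB motif, TTCNNNGAA (STAT), TGACGTCA (CRE), TATAAA and TATATA, with matches of different motifs free to overlap. In the IL24 window the single match was TATATA, beginning 29 bases before the start site. TATATA occurs in 3.99% of the 35116 RefSeq promoter windows. In the IL20 window TATATA and TATAAA began 42 and 32 bases before the start, and 11.5% of windows hold TATAAA. The other IL20 window, chr1:206865373-206865672, held none of these letters. The IL19 window held TTCNNNGAA 217 bases before its start, as do 7.66% of windows somewhere in their length. The earlier IL19 window, chr1:206770523-206770822, which lies inside the IL10 gene, held TGANTCA, found in 7.71% of windows. A match describes letters and is not a measured binding site.

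IL24 had few reads in 6 libraries and many in the remaining 2. The vehicle 12 h libraries held 17 and 13 IL24 reads in A and B, the EMD37 12 h libraries 17 and 32, and the vehicle 24 h libraries 17 and 17. The EMD37 24 h libraries held 1495 and 1532. As CPM, reads were scaled to the product of each library's total over the 14850 genes that passed the filter and its TMM factor. At 12 h the levels were 1.73 and 1.11 in vehicle and 1.57 and 3.18 in EMD37. At 24 h they were 1.57 and 1.83 in vehicle and 158 and 148 in EMD37. The lowest EMD37 24 h library stood 46.4 times above the highest of the other 6, and the order of those 6 did not separate treatment or time. At 12 h the groups overlapped, since EMD37 A lay between the vehicle libraries and EMD37 B above both. The deposited normalized counts gave the same order, at 1599 and 1544 in EMD37 at 24 h against 11.3 to 32.4 in the rest.

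Counting error set the precision at the low end. The exact 95% binomial interval of EMD37 12 h B was 2.18 to 4.50 CPM. It overlapped those of EMD37 12 h A (0.913 to 2.51) and vehicle 12 h A (1.01 to 2.77) and lay above that of vehicle 12 h B (0.592 to 1.90). At 24 h the vehicle intervals were 0.916 to 2.52 and 1.07 to 2.93 CPM, and the EMD37 intervals 150 to 166 and 141 to 155. Such intervals cover counting error only.

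**Figure D1:**
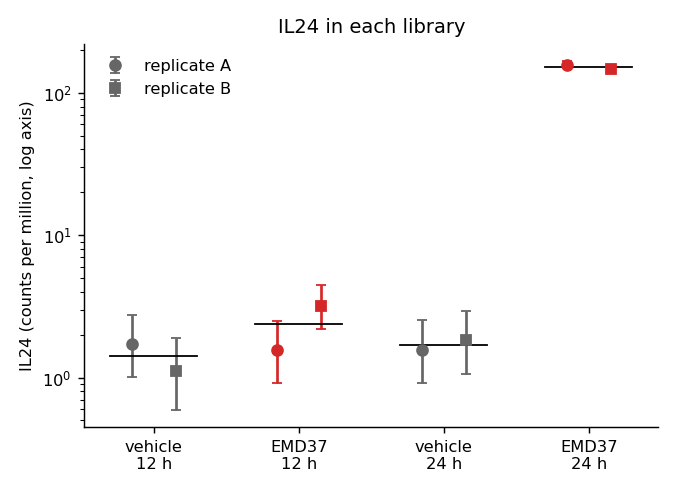
IL24 in CPM (log axis) in each of the 8 libraries, by group. Circles are replicate A, squares replicate B, vertical bars the exact 95% binomial interval and horizontal lines the mean of 2 libraries. The EMD37 24 h libraries lie at 158 and 148 CPM, and the other 6 between 1.11 and 3.18.

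Group means were 1.42 ± 0.435 CPM in vehicle at 12 h, 2.38 ± 1.14 in EMD37 at 12 h, 1.70 ± 0.183 in vehicle at 24 h and 153 ± 7.05 in EMD37 at 24 h (SD, n = 2 each). The 24 h means differed 89.8-fold between EMD37 and vehicle, and the 12 h means 1.67-fold. Between EMD37 at 12 h and at 24 h the difference was 64.3-fold. In these bulk libraries more cells with the transcript and more transcript per cell cannot be told apart.

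The model fitted over all genes gave IL24 a log2 change of 0.75 (SE 0.35) for EMD37 against vehicle at 12 h and 6.49 (SE 0.20) at 24 h. Every SE in this report is the log2 change divided by the square root of edgeR's quasi-likelihood F statistic. It is therefore approximate, and for a large change from few reads, as in IL24 at 24 h, it can be smaller than the counting error. The 24 h change exceeded the 12 h change by 5.74 (SE 0.49) on the log2 scale. Over time, IL24 moved by 0.28 (SE 0.38) in vehicle and by 6.02 (SE 0.19) in EMD37. Ranked from the most positive, these changes placed IL24 at 794 of 14850 tested genes at 12 h, at 5 at 24 h, and at 4 for the difference. The 12 h estimate depended on single libraries, since it was 0.17 without EMD37 12 h B and 1.18 without EMD37 12 h A. The 24 h estimate stayed between 6.37 and 6.59 in the same exercise.

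Levels of different genes can be set side by side per kb of exon. IL24 averaged 0.717 CPM per kb in vehicle and 1.20 in EMD37 at 12 h, then 0.860 in vehicle and 77.2 in EMD37 at 24 h. Among 44 interleukin genes this placed it at rank 11, 11, 8 and 4 in that order. In EMD37 at 24 h the genes above it were IL11 at 195 CPM per kb, CXCL8 at 181 and IL6 at 108, and the next below was IL18 at 8.64. Of 12353 tested protein-coding genes, 17.9% lay below IL24 per kb in vehicle at 24 h and 96.1% in EMD37 at 24 h.

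The other interleukin genes form the background for these values. Of 43 of them, all in the count table, IL17A, IL22, IL36RN, IL33 and IL9 had 0 reads in all libraries, and 16 passed the filter on low counts. The other 22 had at most 5 reads in a library. At 24 h, 10 of the 16 rose with EMD37, 1 fell and 5 passed no threshold, against 19.6% of all tested genes higher and 21.1% lower (edgeR's quasi-likelihood test, Benjamini-Hochberg adjusted p below 0.05). IL19 and IL20 passed the filter through the EMD37 24 h libraries alone, so they had to differ, and EBI3 had at least 10 reads in both libraries of that group only. Without these 3 genes, 7 of 13 rose and 1 fell at 24 h, with a median log2 change of 0.83, and 5 of 13 rose at 12 h, with a median of 0.18. At 12 h, 5 rose and 0 fell, against 5.27% and 3.43% of all genes. DESeq2 called 3 higher and 0 lower at 12 h, beside 637 higher and 336 lower among the 14850 genes. At an unadjusted p below 0.05 edgeR gave 6 higher and 0 lower, for which no share of all genes was computed. The median log2 change of all 16 was 0.45 at 12 h and 1.19 at 24 h, beside -0.01 and -0.03 over all tested genes.

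**Figure D2:**
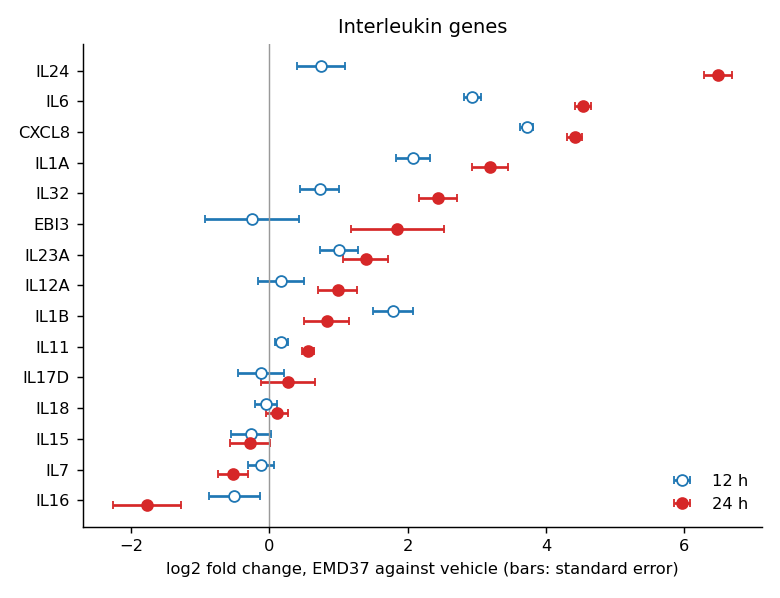
Log2 fold change of EMD37 against vehicle (horizontal axis) for IL24 and 14 other tested interleukin genes. Open circles are 12 h and filled circles 24 h. Bars are the approximate SE, worked back from the F statistic. IL19 and IL20, at 0 to 4 reads outside EMD37 24 h, are left out. Among the genes plotted IL24 has the highest 24 h value, 6.49, with a 12 h value of 0.75, while IL6 and CXCL8 stand at 2.94 and 3.72 already at 12 h.

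The fitted 24 h log2 change of IL19, 7.82, was above that of IL24, but it stands against 0 reads in vehicle and depends on the prior count.

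IL6 and CXCL8, a fever-inducing cytokine and a neutrophil attractant, were high in both EMD37 groups. IL6 was at 7.52 and 6.07 CPM in vehicle and 55.1 and 48.4 in EMD37 at 12 h, then 10.1 and 9.16 in vehicle and 218 and 230 in EMD37 at 24 h. CXCL8 was at 25.3 and 25.0 CPM in vehicle and 351 and 311 in EMD37 at 12 h, then 19.8 and 18.6 against 383 and 438 at 24 h. No vehicle library of either gene reached an EMD37 library. IL6 rose by 2.94 on the log2 scale at 12 h (SE 0.13, adjusted p = 9.87e-11) and by 4.54 at 24 h (SE 0.12, adjusted p = 1.15e-13). CXCL8 rose by 3.72 at 12 h (SE 0.10, adjusted p = 3.36e-13) and 4.42 at 24 h (SE 0.11, adjusted p = 1.1e-13). Both thus had most of their log2 change by 12 h, where IL24 had 0.75 of its 6.49.

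IL1A and IL1B encode the interleukin-1 cytokines that start inflammation. IL1A was at 1.52 and 2.39 CPM in vehicle and 8.20 and 8.66 in EMD37 at 12 h, and at 1.30 and 1.40 against 11.8 and 12.8 at 24 h. It rose by 2.08 (SE 0.25, adjusted p = 2.66e-05) and 3.19 (SE 0.26, adjusted p = 7.26e-08) on the log2 scale. IL1B rose at 12 h, by 1.78 (SE 0.29, adjusted p = 0.000618), from 1.73 and 1.62 to 5.62 and 5.97 CPM. At 24 h it was at 1.39 and 2.05 in vehicle and 3.48 and 2.61 in EMD37, a log2 change of 0.83 (adjusted p = 0.0506). With DESeq2 size factors, with genes recovered from the normalized table, or without vehicle 24 h B, that p was 0.0437, 0.0448 and 0.0347.

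IL32, a proinflammatory protein, had a call at 24 h and none at 12 h. It was at 1.93 and 3.51 CPM in vehicle and 4.61 and 4.58 in EMD37 at 12 h, then 2.31 and 1.62 against 11.5 and 10.1. Its log2 change was 0.73 (adjusted p = 0.139) at 12 h and 2.44 (SE 0.28, adjusted p = 3.07e-06) at 24 h. IL11, a relative of IL6 that shares its receptor chain, was at 318 and 388 CPM in vehicle and 528 and 513 in EMD37 at 24 h. It rose by 0.56 (SE 0.09, adjusted p = 7.4e-05) at 24 h, and by 1.81 in vehicle between 12 h and 24 h, where 2.75% of all genes rose. IL24 was at 1.73 and 1.11 CPM in those earlier vehicle libraries and at 1.57 and 1.83 in the later ones.

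IL23A and IL12A encode chains of interleukin-23 and interleukin-12, and EBI3 pairs with such chains. IL23A rose by 1.01 at 12 h (adjusted p = 0.033) and 1.40 at 24 h (adjusted p = 0.00248). Its 12 h call was lost without any one of the 4 libraries of that time, with adjusted p from 0.112 to 0.206. IL12A rose by 0.99 at 24 h (adjusted p = 0.00986), a call lost without vehicle 24 h B (0.0836) or EMD37 24 h A (0.0941). EBI3 had 6 and 2 reads in vehicle and 13 and 16 in EMD37 at 24 h, and 2 to 12 in the 12 h libraries, and no test is given since it passed the filter through the EMD37 24 h libraries. IL16, a lymphocyte attractant, was the single gene that fell, by 1.76 on the log2 scale (adjusted p = 0.00836), from 20 and 15 reads in vehicle to 3 and 7, and the p was 0.0801 without EMD37 24 h A. The remaining genes without a call at 24 h were IL7 at -0.53, IL15 at -0.28, IL17D at 0.27 and IL18 at 0.11.

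The difference between the 24 h and the 12 h effect passed the threshold in 4 of the 16, all upward, against 7.96% of all genes higher and 7.94% lower. It was 1.60 for IL6 (adjusted p = 3e-05), 1.71 for IL32 (0.00973), 0.70 for CXCL8 (0.00368) and 0.39 for IL11 (0.0498). The call of IL11 was lost with the replicate letter as a block (0.0643) and without any 1 library other than vehicle 24 h B (0.0810 to 0.181). That of IL32 was lost without vehicle 12 h B (0.130), which left 2 of the 4. IL24, described and not tested, had 5.74.

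The relatives of IL24 in the interleukin-10 family are the nearest members by function. IL19 and IL20, which signal through IL20RA with IL20RB like IL24, had few reads outside EMD37 at 24 h. IL19 had 1 and 1 reads in vehicle and 4 and 1 in EMD37 at 12 h, 0 and 0 in vehicle at 24 h, and 29 and 25 in EMD37 at 24 h. Against a floor of 3 reads over the vehicle group, IL19 was at least 18.2-fold higher with EMD37 at 24 h. IL20 had 0 and 0 reads in vehicle and 0 and 3 in EMD37 at 12 h, then 1 and 2 in vehicle and 15 and 33 in EMD37 at 24 h. Its 24 h ratio was 16.2 with a 95% counting interval of 5.22 to 81.4. No test is given for either gene, since the filter kept them through the EMD37 24 h libraries alone. The highest of these libraries held 33 reads of IL20 where IL24 had 1532.

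IL10, the anti-inflammatory founder of the family, had 0 and 1 reads in vehicle and 5 and 4 in EMD37 at 24 h, a ratio of 9.12 with a counting interval of 1.26 to 400, and was too low to be tested. IL26 had 3 reads, all in EMD37 24 h B, and IL22 had 0. The interferon lambda genes IFNL1, IFNL2 and IFNL3 had at most 1 read in any library. Of the 8 relatives of IL24, IL19 and IL20 were the 2 that passed the filter.

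Receptor genes for IL24 were low throughout. IL20RA had 0 to 5 reads and IL22RA1 0 to 11 over the 8 libraries. IL20RB, the chain common to both receptors, had 6 to 36 reads, with a log2 change of -0.80 at 12 h (adjusted p = 0.337) and -0.24 at 24 h (adjusted p = 0.743). Neither of the chains that pair with IL20RB could be tested at this depth. Among the other family receptors, IFNLR1 had 21 to 44 reads and a 24 h change of 0.38 (adjusted p = 0.409), IL10RA 0 to 7 reads and the decoy receptor IL22RA2 0 to 4. IL10RB came from reads recovered from the normalized table, 6 to 24 per library, and rose by 1.19 at 24 h (adjusted p = 0.0323) in the fit with those genes. In the count table IL20RB and IFNLR1 were thus the 2 of 7 receptor genes with a test, and neither passed its threshold.

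Genes next to IL24 on the chromosome were taken where they start within 200 kb of its start. There were 13 annotated neighbours, 12 of them in the count table and 9 tested. At 24 h, 8 of the 9 rose with EMD37, against 19.6% of all genes, and C4BPB had no call. The median log2 change of the 9 was 1.57. IL19, IL20, PIGR and FCAMR are among them and passed the filter through EMD37 at 24 h, so they had to differ. Without these 4 genes, 4 of 5 rose at 24 h, with a median of 1.42. At 12 h, 0 of the 9 were called by edgeR or by DESeq2, and 0 had an unadjusted p below 0.05 in edgeR. Of all genes, edgeR called 5.27% higher and 3.43% lower at 12 h, so 0 of 9 is near the share of all genes. No such share was computed for the unadjusted p.

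FCMR, which encodes the Fc receptor for IgM, lies 246 bases beyond the end of IL24 on the opposite strand. It had 19 and 25 reads in vehicle and 25 and 22 in EMD37 at 12 h, then 16 and 20 in vehicle and 50 and 56 in EMD37 at 24 h. It rose by 1.57 at 24 h (SE 0.29, adjusted p = 0.000361), and reads that run past the end of IL24 could not be told from its own, since the kit does not mark strand. PIGR and FCAMR, which encode receptors for polymeric IgA and IgM, had 1 and 3 and 3 and 1 reads in vehicle at 24 h, and 14 and 13 and 17 and 23 in EMD37. No test is given for either gene, because the filter kept them through EMD37 at 24 h, so they had to differ.

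Farther along, YOD1, a deubiquitinase, was at 155 and 151 CPM in vehicle and 390 and 427 in EMD37 at 24 h, and at 175 to 189 in all 12 h libraries. It rose by 1.42 at 24 h (SE 0.08, adjusted p = 4.65e-10) and had a log2 change of 0.06 at 12 h. PFKFB2, a regulator of glycolysis, rose by 0.55 at 24 h (adjusted p = 0.000294) and C1orf116 by 1.47 (adjusted p = 0.000279). C4BPB, a complement regulator, was at 5.09 and 4.74 CPM in vehicle and 4.22 and 3.96 in EMD37 at 24 h, a log2 change of -0.27 that passed no threshold (adjusted p = 0.430). The 24 h effect exceeded the 12 h effect for FCMR by 1.43 (adjusted p = 0.0327), PFKFB2 by 0.61 (0.0069) and YOD1 by 1.36 (7.21e-07). The call of FCMR was lost without any 1 library other than vehicle 24 h B (0.0671 to 0.119), and that of PFKFB2 without EMD37 12 h B (0.0559).

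**Figure D3:**
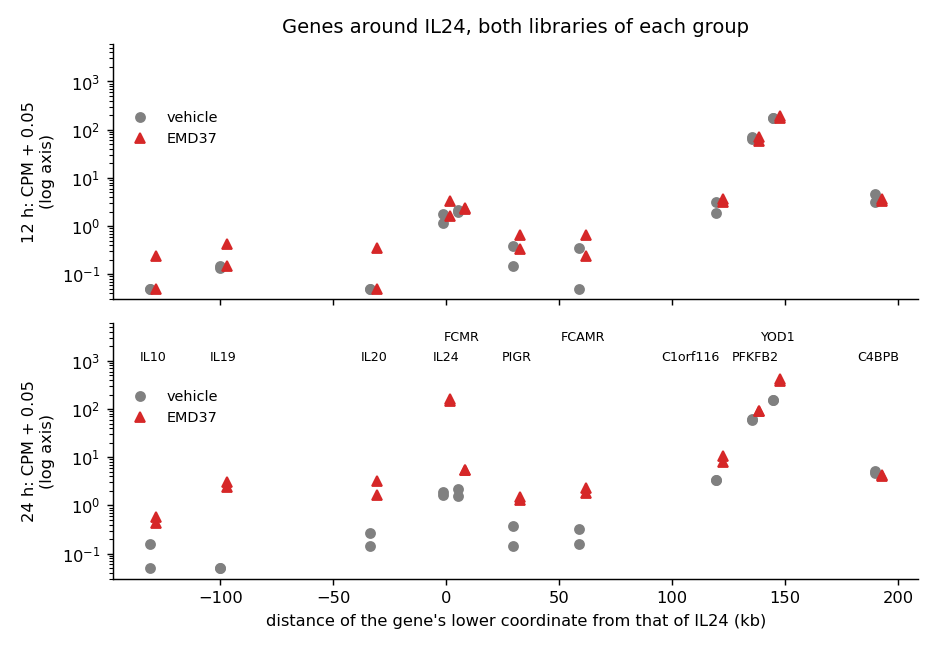
Expression of IL24 and 10 genes within 200 kb, as CPM plus 0.05 on a log axis, against the distance in kb from IL24; grey circles are vehicle and red triangles EMD37, 2 libraries each, with 12 h above and 24 h below, and a Y RNA and a pseudogene are left out. At 24 h IL24 is at 158 and 148 CPM with EMD37, and its neighbours other than C4BPB also lie above vehicle. For IL19, IL20, PIGR and FCAMR this follows from the filter. At 12 h symbols overlap or lie close.

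Outside that window, on the side of IL10, MAPKAPK2, a kinase that stabilises cytokine mRNA, rose by 0.50 at 24 h (adjusted p = 0.00242) and DYRK3 by 0.99 (adjusted p = 1.83e-07), while EIF2D was at -0.16 (adjusted p = 0.302). CD55, a complement inhibitor on the other side, rose by 1.94 at 12 h (adjusted p = 3.25e-06) and by 2.49 at 24 h (adjusted p = 8.48e-09). From recovered reads, IKBKE was at 0.40 (adjusted p = 0.0408) and RASSF5 at -1.14 (adjusted p = 5.85e-05), the 1 gene of this stretch that fell. Of 18 neighbours listed by name over this longer stretch, 13 were tested in the count table, and 11 rose at 24 h and 2 at 12 h, against 19.6% and 5.27% of all genes. IL19, IL20, PIGR and FCAMR are among the 11, and without them 7 of 9 rose at 24 h, with a median log2 change of 0.99 beside -0.03 over all genes. The 12 h calls were CD55 and DYRK3, and that of DYRK3, a kinase, was lost with the replicate block (adjusted p = 0.0658), with DESeq2 (0.0822) and without any 1 library other than those of vehicle 24 h (0.0575 to 0.344).

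JAK and STAT genes carry the signal of the IL24 receptor. Of 19 listed, 15 were tested, and 6 rose at 24 h and 1 at 12 h, against 19.6% and 5.27% of all genes. The 24 h count was 3 with DESeq2, 3 without EMD37 24 h A and 4 without vehicle 24 h A. PIM1, a kinase induced by STAT factors, rose by 1.67 (adjusted p = 5.53e-08), SOCS2, a feedback inhibitor, by 0.65 (adjusted p = 2.87e-05), STAT5A by 0.74 (adjusted p = 0.000329) and BCL3 by 1.19 (adjusted p = 0.00956). The call of BCL3 was lost with DESeq2 (0.0634) and without EMD37 24 h A (0.0673) or vehicle 24 h A (0.0632). STAT3, the main factor named for IL24, was at -0.23 at 24 h (adjusted p = 0.377). Among 35 other interleukin receptor genes, 19 were tested, and 4 rose and 6 fell at 24 h, against 19.6% and 21.1% of all genes, with a median log2 change of -0.14. The share that rose was near that of all genes, and DESeq2 or leaving out EMD37 24 h B gave 2 higher. IL6ST, the signalling chain for IL6 and IL11, rose by 0.96 (adjusted p = 7.38e-08) and IL6R by 1.48 (adjusted p = 1.4e-06), while IL17RD fell by 0.71 (adjusted p = 0.000283) and IL7R by 0.37 (adjusted p = 0.000687).

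A list of 18 genes that forced IL24 expression is known to act on, mostly of endoplasmic reticulum stress and apoptosis, had 17 tested, with 5 higher and 1 lower at 12 h and 6 higher and 5 lower at 24 h. Of all genes, 5.27% were higher and 3.43% lower at 12 h, and 19.6% and 21.1% at 24 h. Without EMD37 24 h B, 3 were lower at 24 h, and without EMD37 12 h B, 0 were lower at 12 h. HSPA5, the chaperone BiP, changed by 3.42 at 12 h and 2.81 at 24 h, a difference of -0.61 (adjusted p = 0.00522). DDIT3, the stress factor CHOP, changed by 3.29 and 2.32, a difference of -0.98 (adjusted p = 0.00114). Both were already high at 12 h, when IL24 was at 1.57 and 3.18 CPM. PPP1R15A, which helps remove the phosphate from eIF2alpha, went the other way, from 1.30 to 2.27 (difference 0.97, adjusted p = 7.58e-05), and GADD45A from 1.24 to 1.65 (difference 0.41, adjusted p = 0.0156). The difference of HSPA5 was not called without EMD37 12 h B (0.0542) or vehicle 12 h A (0.0598), and that of GADD45A without either EMD37 12 h library, EMD37 24 h B or vehicle 12 h A (0.0579 to 0.0754).

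Transcription factors of the AP-1, C/EBP and NF-kB families can act on cytokine genes. Of 21 such genes listed, 20 were tested, and 10 rose at 12 h and 15 at 24 h, with median log2 changes of 0.69 and 1.09. Over all genes, 5.27% and 19.6% rose, and the medians were -0.01 and -0.03. The remaining members had no call at that time, and DDIT3 belongs also to the stress list. DESeq2 called 8 of the 20 higher at 12 h and 14 at 24 h, beside 637 and 2458 of the 14850 genes. ATF3 changed by 2.71 and 3.15, CEBPB by 1.61 and 2.12 and CEBPG by 0.68 and 1.09. Of 12 genes that act on the stability of cytokine mRNA, all were tested, and 5 rose and 4 fell at 24 h, against 19.6% and 21.1% of all genes. ZFP36L1, a decay factor, rose by 1.15 (adjusted p = 5.41e-08), RC3H1 by 0.99 (adjusted p = 9.48e-08) and ZC3H12A, an RNase, by 1.77 (adjusted p = 6.97e-05), while MAPK14, the p38 kinase, fell by 0.55 (adjusted p = 2.35e-05).

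The 10 genes with the profile most like IL24 were taken by the root mean square distance between log2 CPM values, each gene centred on its own mean over the 8 libraries. This measure favours genes that are also low elsewhere and high in EMD37 at 24 h. From nearest to farthest they were PDE7B-AS1 (distance 1.10), TNFSF15 (1.17), MTUS2-AS1 (1.23), TULP2 (1.28), FTCD (1.30), LINC01471 (1.31), GDF15 (1.33), TCP11L2 (1.33), GDA (1.38) and IL19 (1.40), with IL6 at rank 12 and IL20 at 14 of 14849. Pearson's r with IL24 ran from 0.905 to 0.986 in these 10, but 854 tested genes had r above 0.9, and the 8 points are 4 groups of 2. By r the 10 nearest genes shared 0 with this list, and SLC15A4 led them at 0.995.

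PDE7B-AS1, an antisense RNA, had 36 to 64 reads in 6 libraries and 674 and 631 in EMD37 at 24 h. TNFSF15, a cytokine of the TNF family, had 8 to 12 reads in vehicle, 42 and 35 in EMD37 at 12 h and 250 and 279 in EMD37 at 24 h. GDF15, a secreted stress hormone of the TGF-beta family, had 22 and 30 reads in vehicle and 89 and 64 in EMD37 at 12 h, then 13 and 13 against 464 and 396. TNFSF15 and GDF15 thus separated from vehicle at 12 h, where IL24 did not. Without strand, reads of PDE7B-AS1 and MTUS2-AS1 cannot be told from those of the genes on the other strand.

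**Figure D4:**
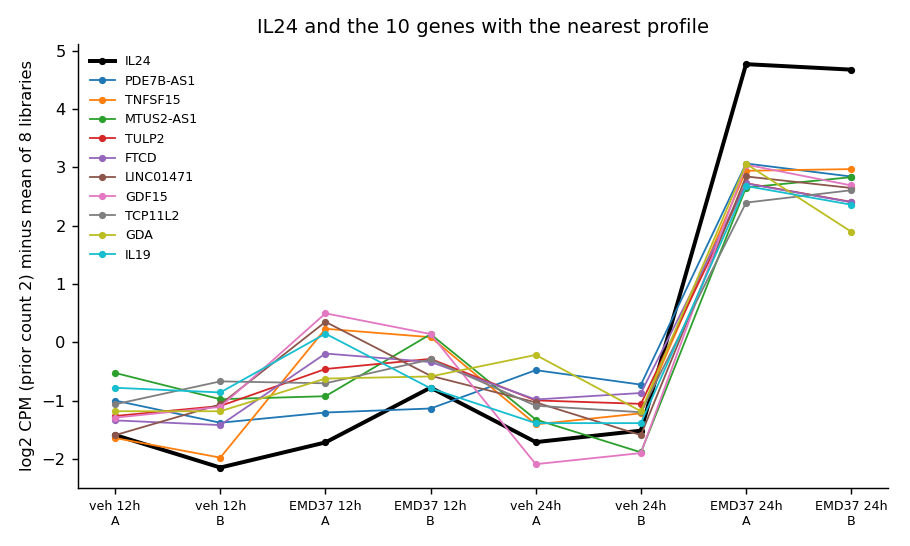
Log2 CPM (prior count 2) minus the gene's mean over 8 libraries, for IL24 (thick black line) and the 10 genes nearest to it, with 1 point per library; lines join the libraries to aid the eye and carry no order. All 11 genes are highest in the EMD37 24 h libraries, and IL24 spans the widest range.

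Library and identity checks bear on all values above. The 8 libraries held 8.99 to 11.44 M reads in the count table (M, mega). Of 7 genes expected high in MDA-MB-231, VIM, CD44, CAV1 and MSN averaged 1553, 1112, 1554 and 1280 CPM, and SPARC was low at 0.822. Of 6 genes expected low or absent, epithelial CDH1 and EPCAM averaged 0.0722 and 0.143 CPM. ESR1, GATA3, PGR and ERBB2 averaged 1.41, 1.52, 3.05 and 4.01 CPM. The 11 leukocyte markers summed to 3.25 to 4.10 CPM in vehicle and 3.58 to 4.42 in EMD37 at 12 h, and 3.79 to 4.42 in vehicle and 2.90 to 3.70 in EMD37 at 24 h. Of them CSF1R gave the most, 2.15 CPM on average, and LYZ had 0 reads. The 3 melanocyte markers summed to at most 1.48 CPM in EMD37 at 24 h. Of 5 keratinocyte markers KRT10 alone was above 0.07 CPM on average, at 24.9, and the sum was 23.6 to 25.4 in vehicle and 19.2 to 20.5 in EMD37 at 24 h.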

How the data were processed

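The 8 RNA-seq libraries were made with the TruSeq V2 kit, per the labels' protocols. FastQC, STAR, DESeq2 and build hg38 are named in the submitters' processing notes, without versions or roles, and the counting program is not named. The authors deposited whole-number read counts per gene, which entered every test, and normalized counts (signal). The latter were those reads divided by 1 factor per library, and served as a second view of IL24. In the copy used here the count table ended within a line at 36715 genes, and 6912 IDs were found in the normalized table alone; their reads, recovered by multiplication, entered an alternative.

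Genes were named with GENCODE 29. edgeR 4.0.16 in R 4.3.3 (filterByExpr, minimum count 10; TMM factors 0.948 to 1.03) fitted 1 mean per group to 14850 genes, with 4 residual degrees of freedom, and its quasi-likelihood test was adjusted by Benjamini-Hochberg over all of them and called at 0.05. DESeq2 1.42.0 was an alternative. On simulated counts for the 24 h comparison, run on 14850 genes, 79% of genes changed by 1 on the log2 scale and 93% of those changed by 2 were called. The simulation gave every gene the same spread (dispersion 0.00537) and changed few genes, so these shares need not hold for the real counts. IL24 and the lists were chosen with earlier results of these data known. Genes named are IL24, the other interleukins tested or with 0 reads, the interleukin-10 family and its receptors, and the tested neighbours within 200 kb. The 22 interleukins with at most 5 reads in a library were named only if they belong to that family. Up to 4 members of each further list followed by smallest p at 24 h, and the 10 genes nearest to IL24. Others were added after their values were seen (STAT3, EIF2D, IKBKE, RASSF5, MAPKAPK2 and CD55).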

Additional observations from a re-analysis of the deposited data

Results flagged for a closer look

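The effect of EMD37 differed between 24 h and 12 h in the 11 genes listed here. The test was edgeR's test of the difference itself, with Benjamini-Hochberg adjustment over 14850 genes, and IL24 was not tested. Other genes named above also passed it, among them CEBPG, ZFP36L1, PIM1 and IL17RD. Each of these calls was lost in some fits without 1 library. That of IL17RD was also lost with the replicate block (0.0517), with DESeq2 (0.0840) and with no filter on low counts (0.0664). Among interleukins the 24 h effect was larger by 1.60 on the log2 scale for IL6, 1.71 for IL32, 0.70 for CXCL8 and 0.39 for IL11. Among chromosomal neighbours it was larger by 1.43 for FCMR, 0.61 for PFKFB2 and 1.36 for YOD1. Among stress genes it was larger by 0.97 for PPP1R15A and 0.41 for GADD45A, and the difference was -0.61 for HSPA5 and -0.98 for DDIT3. Adjusted p ran from 7.21e-07 for YOD1 to 0.0498 for IL11. The call of IL11 was lost with the replicate block (0.0643) and in 7 of 8 fits without 1 library (0.0810 to 0.181), and that of FCMR in 7 of 8 such fits (0.0671 to 0.119). Single libraries also ended the calls of IL32 (0.130 without vehicle 12 h B), PFKFB2 (0.0559 without EMD37 12 h B), HSPA5 (0.0542 and 0.0598) and GADD45A (0.0579 to 0.0754).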

How the results depend on the processing

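The alternatives were DESeq2 size factors, the DESeq2 Wald test, no filter on low counts, recovered genes, the letter as a replicate block, only the libraries of 1 time, and each library left out in turn. With libraries left out, the log2 change of IL24 ran from 0.17 to 1.18 at 12 h, 6.37 to 6.59 at 24 h, 5.30 to 6.32 for the difference between the times, and 5.58 to 6.60 in EMD37 over time. In vehicle over time it ran from -0.0288 (without vehicle 12 h B) to 0.61, a change of sign in a small value. Depth limits the 6 libraries with 13 to 32 IL24 reads, not the 2 with 1495 and 1532; where an arm was left with 1 library, that library was assumed to vary like the other groups.

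The deviations of A from B correlated between groups at -0.16 to 0.16, so no strong shared effect of the letter was seen. This check cannot settle whether A and B were paired. With the replicate block, IL24 was at 0.75 at 12 h, 6.49 at 24 h and 5.74 for the difference. Of the calls given or counted above, the block ended those of IL11 (adjusted p = 0.0643, which left 3 interleukins) and IL17RD (0.0517) for the difference. At 12 h it ended those of DYRK3 (0.0658) and REL (0.0622, which left 9 of the 10 AP-1, C/EBP and NF-kB genes). Over all genes with the block, 705 rose and 392 fell at 12 h, and 2858 and 3037 at 24 h.

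Over all genes, the 12 h count was 1394 higher and 1109 lower with the libraries of that time alone, and 336 lower with the DESeq2 Wald test. Without the filter, 623 genes rose in vehicle over time. DESeq2 called 3 interleukins higher at 12 h, with IL1B and IL23A given no adjusted p. By Pearson's r, 0 of the 10 genes nearest to IL24 were kept. With libraries left out, the 12 h counts ran from 385 to 1268 higher and 117 to 962 lower, and the difference from 695 to 1473 higher and 563 to 1784 lower. Vehicle over time gave 30 to 1612 higher and 51 to 844 lower, and EMD37 over time 1450 to 2859 and 1411 to 2856. Interleukins lower at 24 h numbered 0 to 1, and those with a larger 24 h effect 2 to 4. The cause of these shifts was not tested.

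Changes of sign occurred in genes without a call, with these ranges over the libraries left out: at 12 h IL7 -0.24 to 0.0168, IL15 -0.68 to 0.0381, IL18 -0.16 to 0.10, EBI3 -1.83 to 0.59, PFKFB2 -0.20 to 0.0619 and C4BPB -0.41 to 0.13; at 24 h IL15 -0.52 to 0.0434, IL17D -0.24 to 0.63 and IL18 -0.0858 to 0.28.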
